A study of Arabidopsis thaliana with 48 samples.

Results

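The 200 most stable genes of early flower development in Arabidopsis were the genes whose share of the transcriptome varied least from sample to sample while induced inflorescences went on to make flowers. They were chosen by the measured values: among 5403 genes with a mean of 50 CPM (a gene's count over the column total, times 1e6) or more, they had the lowest coefficients of variation (CV, SD over mean) across 24 samples. They are 200 of 23069 genes in the table. The rule used every sample, so their levels, CVs and changes are a description. Where a test was run over all genes, the members' counts in it are given beside the background and support nothing.

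The plants were of the Col-0 background, carried the pAP1:AP1-GR transgene and were mutant for ap1 and cal, in all 6 groups alike. In such plants inflorescence meristems pile up until dexamethasone, which lets the fusion of AP1 and a glucocorticoid receptor domain enter the nucleus, starts flowers together. The AP1 promoter drives the fusion, so it acts where that promoter is active. Inflorescences were taken at day 0 and at days 1, 2, 3, 4 and 5 after induction with 2 µM dexamethasone, with 4 biological replicates per day (n = 4). A time course without dexamethasone is not analysed here. Each sample was sequenced in 2 batches and the batches were summed, which gave 26.56 to 27.98 M counts per sample (M, 1e6). The 7 meristem and young flower markers summed to 650.0 to 1170 CPM per sample, 7 tapetum markers to 0.112 to 33.5 CPM, and the pollen gene PPME1 was at 0.11 CPM or less. The 5 green tissue markers summed to 8870 to 12000 CPM at day 0 and to 4620 to 6600 CPM at day 5, and the part of such shifts in the results below was not tested. In these bulk samples fewer cells of a type and less RNA per cell cannot be told apart, and a constant CPM is a constant share of the library, not a constant amount per cell.

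Reference genes are used to scale RT-qPCR measurements, on the premise that their transcript level does not move with the treatment. Classical choices code for actin, tubulin, ubiquitin, elongation factor or glyceraldehyde-3-phosphate dehydrogenase, parts of the cytoskeleton, protein turnover, translation and glycolysis. Later choices, such as the phosphatase 2A subunit gene PP2AA3 and TIP41L, came from surveys of many microarrays. Housekeeping promoters of plants often hold site II elements, short motifs bound by TCP factors in growing cells, while inducible promoters more often hold a TATA box.

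The upstream sequence of 4 of the 10 lowest-CV members is shown because housekeeping promoters are the places where site II elements are known. Of the 10, 4 (UAP56b, AT-HF, PEX14 and RH8) hold such letters and 6 hold none, and those shown are LOS4, which has the lowest CV, and 3 with the letters. Each sequence is the 250 bases before the annotated gene start (TAIR10.1, sense strand of the gene, positions -250 to -1), and capitals mark site II letters. The window of LOS4 is chr3:19687490-19687739 (plus strand), that of UAP56b chr5:3566924-3567173 (plus strand), that of AT-HF chr4:13515182-13515431 (plus strand) and that of PEX14 chr5:25219897-25220146 (plus strand).
LOS4: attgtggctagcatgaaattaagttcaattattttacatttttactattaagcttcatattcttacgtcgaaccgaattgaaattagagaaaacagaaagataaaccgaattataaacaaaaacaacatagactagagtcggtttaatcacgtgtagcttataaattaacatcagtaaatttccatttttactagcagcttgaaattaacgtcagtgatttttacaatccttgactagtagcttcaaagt
UAP56b: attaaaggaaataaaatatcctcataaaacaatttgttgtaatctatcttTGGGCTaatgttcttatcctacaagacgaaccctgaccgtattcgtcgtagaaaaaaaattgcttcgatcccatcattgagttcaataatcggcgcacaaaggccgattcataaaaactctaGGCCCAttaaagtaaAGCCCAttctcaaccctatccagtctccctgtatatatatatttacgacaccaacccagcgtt
AT-HF: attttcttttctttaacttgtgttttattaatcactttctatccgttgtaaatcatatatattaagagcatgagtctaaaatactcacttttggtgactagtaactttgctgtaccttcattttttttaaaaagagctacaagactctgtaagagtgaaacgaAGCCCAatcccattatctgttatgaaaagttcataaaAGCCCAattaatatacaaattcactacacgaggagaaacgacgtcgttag
PEX14: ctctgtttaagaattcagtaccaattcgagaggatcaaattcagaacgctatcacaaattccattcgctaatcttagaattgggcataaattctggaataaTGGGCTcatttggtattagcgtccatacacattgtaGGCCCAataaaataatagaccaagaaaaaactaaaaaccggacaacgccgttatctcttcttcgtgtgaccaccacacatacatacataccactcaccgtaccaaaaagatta

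In UAP56b the letters begin at -200, -78 and -63, in AT-HF at -87 and -50, and in PEX14 at -149 and -113. LOS4 holds none of them in this window. Over all members, site II letters (TGGGCC or TGGGCT on either strand) were found in 70 of 200 windows, 35.0%. They were found in 28.4% of 5400 protein-coding genes at 50 CPM or more and in 19.2% of 27443 protein-coding genes on the 5 chromosomes. TATAAA on the sense strand was in 32.0% of the members' windows against 30.9% and 32.9% of the same gene sets. The telo box (AAACCCTA, either strand) was in 5.5% against 4.0% and 4.5%, the G box (CACGTG) in 5.0% against 7.8% and 6.5%, and the Y patch CTTCTTC, sense strand, in 5.5% against 5.0% and 5.8%. Each motif was searched on its own, so matches of different motifs can overlap, and a match is a run of letters, not a shown binding site.

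The lowest CV belonged to LOS4 (AT3G53110, chromosome 3, 19687740 to 19690661), an RNA helicase of messenger RNA export. LOS4 stood at 106, 107, 107 and 111 CPM in the 4 samples of day 0, at 108, 108, 106 and 114.5 CPM at day 3 and at 104.5, 110.2, 111 and 104.5 CPM at day 5. The days overlapped throughout, and the lowest and highest of the 24 samples were 104.5 and 114.5 CPM around a mean of 108.8 CPM. Its CV was 2.40%, beside 1.84% that the counts alone give as counting error at this depth.

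AT4G31180, an aminoacyl-tRNA synthetase of the enzymes that load amino acids on transfer RNA, came next with a CV of 2.53%. It stood at 211, 208, 207 and 212 CPM at day 0 and at 201, 199, 209.5 and 208 CPM at day 5. UAP56b (AT5G11200, chromosome 5, 3567174 to 3571039), another helicase of messenger RNA splicing and export, followed with a CV of 2.59%. UAP56b stood at 391.8, 370.1, 354 and 383 CPM at day 0 and at 369, 368.5, 382 and 363 CPM at day 5. In both genes the samples of day 0 and day 5 overlapped, and in UAP56b the spread within either day was wider than the gap between their means. Other days of AT4G31180 did separate. At day 2 it stood at 217.1, 219.8, 215.3 and 215.4 CPM, above every sample of day 0 and day 5. UAP56b lies near its copy UAP56a (AT5G11170), also a member, and 22% of the 50-base stretches of its transcript occur in another gene, so reads of the pair may be split between them. The pair summed to 745.4 CPM with a CV of 2.80%.

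The next places went to AT3G13670, a protein kinase, with a CV of 2.77% at 188 CPM, and to BTR1L, of a protein family named for binding viral RNA, with 2.78% at 137 CPM. AT1G30580, a GTP-binding protein, followed with 2.90% at 283 CPM, and AT-HF, an enzyme of histidine synthesis, with 3.04% at 71.8 CPM. PEX14, a docking protein of peroxisome import, had 3.30% at 96.4 CPM, EHD1, a protein of endocytosis, 3.30% at 76.5 CPM, and RH8, an RNA helicase, 3.30% at 79.8 CPM. Of these 10 genes, 3 are RNA helicases (LOS4, UAP56b and RH8), and none is a classical reference gene.

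**Figure D1:**
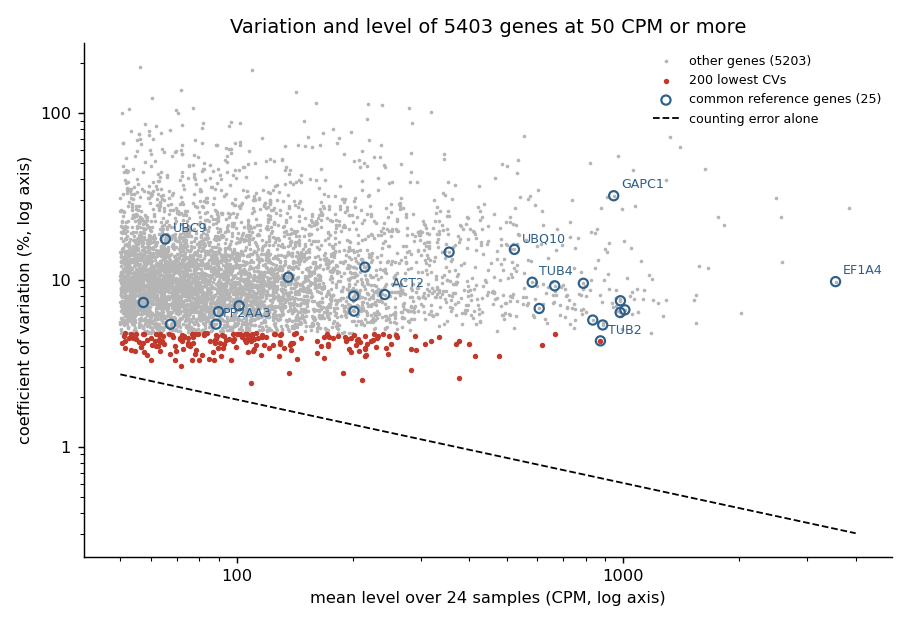
Coefficient of variation over 24 samples (%, log axis) against mean level (CPM, log axis) for 5403 genes, with the 200 members in red, 25 common reference genes circled in blue and the counting error alone as a dashed line. The members form the lower edge up to 874 CPM, TUB2 is the one circled gene among them, and GAPC1 lies at 31.9%.

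The members were spread over the range of levels up to 874 CPM. Of 5 equal bins of the 5403 genes by mean CPM, the lowest (50 to 61.7 CPM) held 25 members and the highest (167 to 3840 CPM) held 57. Their median level was 106 CPM against 90.3 CPM for all 5403 genes, and per kilobase of transcript it was 55.5 against 45.4 CPM. By level per length the highest members were RS27A, a ribosomal protein gene at 521 CPM per kilobase, the tubulin gene TUB2 at 453.5 and the ribosomal protein gene AT5G27700 at 356. The lowest were AT2G41960, AT2G25800 and AT3G17750, a kinase, at 14.4, 15.4 and 16.0 CPM per kilobase. The members had a median of 9.0 exons against 7.0, with a similar transcript length (2060 against 2020 bases) and a similar GC content of the gene (38.9% against 39.0%).

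The members' CVs ran from 2.40% to 4.78%, with a median of 4.30% against 9.60% for all 5403 genes. Their median CV within a day was 3.76% (7.33% for all), the median CV of their 6 day means was 2.63% (7.04%), and the median counting error was 1.87% (2.02%). The highest day mean of a member exceeded the lowest by 1.07 times in the median, and by 1.02 to 1.13 times over the 200. The edge of the list has no gap. Just inside it ALDH12A1, VCL1, EXO84B, AIM1 and AT2G01970 had CVs of 4.773% to 4.777%, and just outside AT4G14160, AT1G51980, AT2G01060, AT5G41950 and MAP2B had 4.778% to 4.796%.

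The list was made again from 3 replicate numbers at a time, and its genes were then measured in the 6 samples of the replicate number left out. In those samples the 200 genes had median CVs of 5.45%, 5.16%, 4.50% and 4.29% with replicate 1, 2, 3 and 4 left out. The other genes at 50 CPM or more had 10.6%, 10.9%, 8.56% and 8.90%. Of each 200, 192 to 198 lay below the median of the other genes, but only 35 to 49 were among the 200 lowest in the samples left out. The lists shared 136 to 162 genes with the members.

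**Figure D2:**
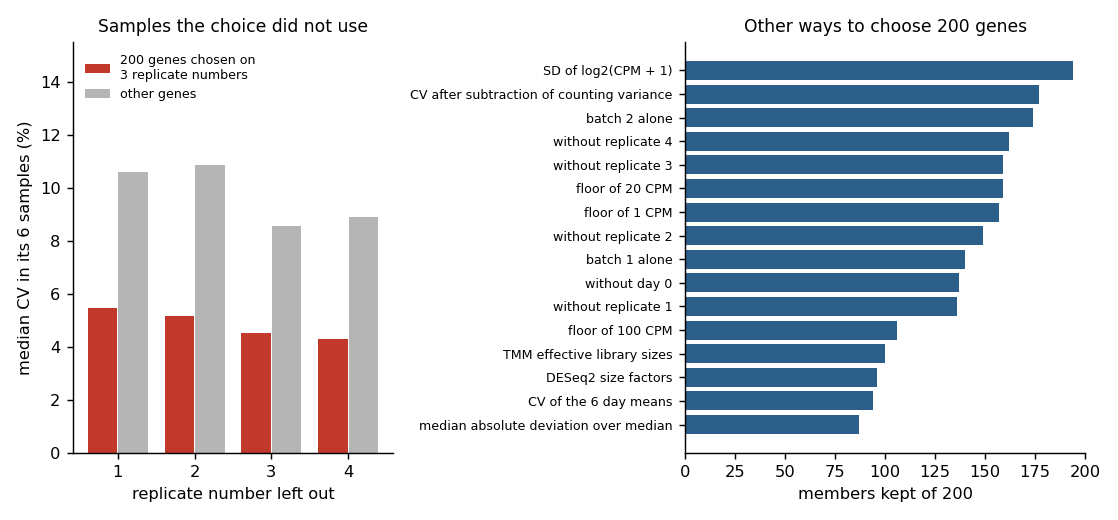
Left, median coefficient of variation (%) in the 6 samples of the replicate number left out, for 200 genes chosen on the other samples (red) and for all other genes at 50 CPM or more (grey); right, how many of the 200 members stay on a list of 200 made another way. The red bars are 4.29% to 5.45% and the grey bars 8.56% to 10.9%, while both other scalings, the median absolute deviation and the CV of the day means leave 87 to 100 members.

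The list depended on the scaling. TMM factors, which scale samples on the assumption that most genes do not change, ran from 0.944 to 1.037, a CV of 2.59%, within the range of the members' CVs and below their median. With TMM, 100 of 200 members stayed on the list (50% of either list), and the median CV of the members was 4.54% against 9.32% for all. All 10 leading genes stayed, at places 2 (UAP56b) to 165 (AT1G30580), and the lowest CV after TMM, 2.02%, belonged to the member PGI1, a phosphoglucose isomerase. The geometric mean of all 200 members was 112.9 to 118.3 CPM over the samples, a CV of 1.18%.

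Of the 200 members, 18 passed the test for change over the 6 days (edgeR, adjusted p under 0.05), 9.0%, beside a background of 48.9% of all 19747 genes tested and 49.1% of those at 50 CPM or more. At day 5 against day 0, 15 members passed, 7.5% beside 47.2% of all genes tested and 46.4% of those at 50 CPM or more. Of these members 11 were higher (5.5% of the 200) and 4 lower (2.0%), beside 24.3% and 22.9% of all genes tested. The rule used the same values, so nothing is read from these shares. Without replicate 2, 3 or 4 the members' count over the 6 days was 3, 5 and 6, beside 32.0%, 38.9% and 35.9% of all genes tested. Their count at day 5 was then 6, 5 and 2, beside 37.8%, 37.0% and 39.2%. The count at day 5 was 9 without replicate 3 of day 0 and 7 without replicate 3 of day 5, beside 42.5% and 43.2%. The changes were small. AT5G04410, a NAC transcription factor gene, had the largest rise of the day means, and stood at 102, 97.6, 97.7 and 98.5 CPM at day 0 and at 105, 113, 114 and 116 CPM at day 5. The 2 days did not overlap, and its log2 difference was 0.18. AT5G27700, for ribosomal protein S21, had the largest fall, from 239, 258.5, 253 and 249.9 CPM at day 0 to 218, 227, 227 and 229 CPM at day 5. These days did not overlap either, and the log2 difference was -0.15. The next largest rises were those of AT2G01970, an endomembrane protein, and STL2P, of the SEC12 family of COPII coat assembly, both 0.12 on the log2 scale, and the next falls those of EXO84B and THO1, a subunit of a messenger RNA export complex, both -0.14. AKR2, an ankyrin protein of membrane targeting, had the widest ratio of day means, 1.13 times, between day 0 and day 2.

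By column totals 28.0% of the members had their highest day mean at day 3, against 9.18% of all 5403 genes, and 42.0% had their lowest at day 5, against 41.5%. After TMM scaling the pattern was another one, with 36.0% highest at day 0 and 43.0% lowest at day 1, against 31.3% and 16.0% of all genes. The day on which members peaked thus differed between the scalings.

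Membrane traffic genes were 23 of the 200, 11.5% against 2.55% of all 5403 genes, and genes for entry into the endoplasmic reticulum (ER) and glycoprotein making were 9 of the 28 such genes at 50 CPM or more, 4.50% against 0.52%. These classes come from words in RefSeq product names. All classes were made with the members in view, the ER class after they were seen, and the class words took in more of the members than of all genes, with 27.0% against 46.84% left unnamed. The shares are a description of the list. In the list of 200 made after TMM scaling, the same classes held 18 and 6 genes.

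In the ER group AT1G48900, a subunit of the signal recognition particle that brings ribosomes to the ER, had a CV of 3.32% at 87.6 CPM. AT4G12590, of the complex that inserts membrane proteins, had 3.52% at 116 CPM. DGL1, a subunit of the enzyme that attaches sugar chains to proteins, had 3.76% at 208 CPM. Of 8 signal recognition particle and signal peptidase genes at 50 CPM or more, 5 were members and the 8 had a median CV of 4.49%, while the receptor subunit gene SRPRA had 13.4%. PSL4 and RSW3, both subunits of glucosidase II, which trims new sugar chains, were members too, with CVs of 3.51% and 4.13%.

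In the traffic group EHD1, RABE1c, a Rab GTPase of secretion, and AT4G34450, the gamma subunit of the COPI coat, had CVs of 3.30%, 3.52% and 3.52%. AT4G34450 was at 479 CPM, the highest of the 3. Of the 10 genes of the COPI coat, which carries cargo back to the ER, 2 were members, and the 10 ran from 3.52% to 11.5%. SAR2, a GTPase of the outbound COPII coat, the clathrin light chain gene CLC2, the exocyst genes SEC15B and EXO84B and the vacuole gene VCL1 were also members.

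Genes of RNA handling were 16 of the members, 8.00% against 4.55% of all genes. Filed by words in product names, this class leaves out LOS4 and BTR1L, whose CVs were lower than that of FLK. Within the class FLK, a KH-domain protein of flowering time control, followed UAP56b and RH8 with 3.54% at 81.2 CPM. The class also held PAB2, a poly(A) binding protein, at 666 CPM and the decapping factor DCP5. Translation genes were 14, 7.0% against 6.76%. Of 12 eIF2 and eIF3 initiation factor genes at 50 CPM or more, 4 were members, among them TIF3B1 with 3.89%, and the 12 summed to 2560 to 2700 CPM per day with a CV of 3.26%.

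Genes filed under protein turnover were 16 members, 8.00% against 3.68%. They were led by the ubiquitin-conjugating enzyme UBC36 with 3.79%, AT1G16860, so filed by its product name only, with 3.8%, and the proteasome subunit PAA2 (AT2G05840) with 3.91%. Of 40 genes of the 26S proteasome at 50 CPM or more, 7 were members, and all 40 lay between 3.91% and 7.99% with a median of 5.77%. CDC48, the ATPase that pulls proteins out of complexes, had 4.08% at 616 CPM. Protein folding genes were 8 members, led by the disulfide isomerase gene PDIL1-4 with 3.83%. They included 3 of the 9 genes of the chaperonin CCT, which folds actin and tubulin, and the 9 ran from 3.84% to 7.45%.

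Genes filed under mitochondrion and energy were 9 members, 4.50% against 1.46%, and 3 genes, 1.5%, in the list after TMM scaling. They were led by the mitochondrial protease gene ftsh3 with 3.42%, AT5G08690, a beta subunit of ATP synthase, with 3.49% at 413 CPM, and VAB2, a subunit of the vacuolar proton pump, with 3.64%. Of the 16 genes of that pump, 2 were members. Enzymes of metabolism (28 members, 14.0% against 14.2%) and kinases and phosphatases (15, 7.5% against 7.31%) had shares close to those of all genes. In the list after TMM scaling enzymes were 18, 9.0%. IIL1, of leucine synthesis, led the enzymes so filed with 3.48%, while AT-HF, whose product name holds none of the words, was left unnamed. XK-2, a xylulose kinase, and ckl3, a casein kinase, followed AT3G13670 with 3.70% and 3.77%.

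Genes filed under transcription and chromatin were few, 4 members or 2.00% against 6.63%, and 10 in the list after TMM scaling. The 4 were NRPB6B, a subunit of RNA polymerases, with 3.37%, VIP5, of the Paf1 complex, with 4.49%, and the NAC genes AT5G04410 and NAC082 with 4.72% and 4.77%. Filed by words in product names, this class leaves out the members ELO3, PRMT4A and CYP71 (AT3G44600), so its low share depends on the filing. None of the 21 genes filed under nuclear transport, a class that leaves out LOS4, UAP56b and THO1, was a member, and 3 transporters were, led by AT2G25520 with 4.05%. TUB2 was the only member of the 79 genes filed under cytoskeleton, a class that leaves out the member CAP1. Another 54 members, 27.0%, had no class.

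**Figure D3:**
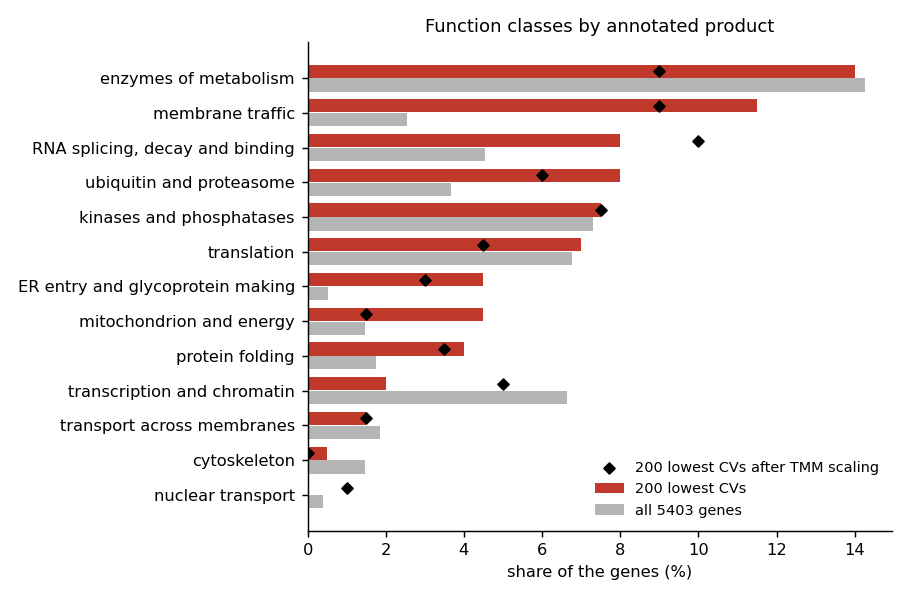
Share (%) of each function class among the 200 members (red bars), all 5403 genes at 50 CPM or more (grey bars) and the 200 lowest-CV genes after TMM scaling (diamonds). Membrane traffic holds 11.5% of the members and 2.55% of all genes, and transcription and chromatin 2.00% and 6.63%.

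Of 38 genes in common use or once proposed as references, 25 had a mean of 50 CPM or more, and 1 of them, TUB2 (AT5G62690), was a member, at place 103 with a CV of 4.31%. TUB2 stood at 819, 885, 849 and 804 CPM at day 0 and at 876, 849.9, 825 and 873 CPM at day 5, and the days overlapped. It shares 22.3% of its 50-base stretches with another gene, mainly its copy TUB3, so its count is uncertain. The other reference genes, not being members, were not checked for such stretches. After TMM scaling TUB2 fell to place 513, and PP2AA3, at place 413 by column totals (5.43%), came to place 52 (3.78%) as the one reference gene on that list. ACT7, SAND and EIF4A1 lay at places 389, 412 and 553 by column totals.

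The reference genes were not chosen by the rule, so their change over the days could be tested. Of the 37 tested, 11 passed (edgeR quasi-likelihood test, adjusted p under 0.05), 7 of them among the 25 at 50 CPM or more, beside the background of 48.9% of all genes. Without replicate 2 or without replicate 4 the number that passed was 4, and without replicate 3 it was 7. UBC21 and AT5G12240, which also passed, missed the threshold under 14 and 27 of the other settings and libraries left out.

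GAPC1 (AT3G04120), a glycolytic dehydrogenase, changed most among the 25. It stood at 556, 594.5, 488 and 559 CPM at day 0, at 1559, 1539, 963 and 1208 CPM at day 2 and at 698, 839, 922 and 889 CPM at day 5. Every later sample was above the 4 of day 0, and the CV was 31.9% (adjusted p = 0.000126 over the 6 days). TUB4 (AT5G44340), a tubulin, fell from 665, 742, 660.4 and 627 CPM at day 0 to 582, 506, 516.5 and 486 CPM at day 5, with no overlap, by 0.35 ± 0.07 (SE) on the log2 scale (adjusted p = 0.000241). Over the 6 days its adjusted p was 0.00151, and 0.0668 without replicate 2.

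ACT2 (AT3G18780), the actin gene most used in leaves, had its lowest day at day 1, with 218, 215, 232 and 216 CPM against 252, 291, 259.6 and 243 CPM at day 0. The 2 days did not overlap, and the gene passed over the 6 days (adjusted p = 0.0252), but not without replicate 2, 3 or 4 (adjusted p = 0.196, 0.0955 and 0.0794), nor without replicate 1, 2 or 4 of day 1 (0.0651, 0.0716 and 0.0696), nor when scaled by library totals (0.0695), the scaling of the CPM given here. UBQ10 (AT4G05320), a polyubiquitin, stood at 461, 653, 443 and 478 CPM at day 0 and at 663.5, 571, 476 and 633.5 CPM at day 5. Its samples spread widely within days other than day 1, with SDs of 63.05 to 103.8 CPM against 26.87 CPM at day 1. Its CV was 15.2%, and it did not pass the test (adjusted p = 0.466). YLS8, UBC9, CBP20 and PP2A2 also passed (adjusted p = 0.0114, 0.0196, 0.0285 and 0.0433), but YLS8 and CBP20 missed the threshold without replicate 2, 3 or 4 (highest adjusted p 0.167 and 0.24), UBC9 without replicate 1 or 4 (0.136) and PP2A2 without any 1 of the 4 (0.0735 to 0.202). CBP20 also missed it with the replicate block (0.0543), CBP20 and PP2A2 in either batch alone (0.086 and 0.0541, 0.125 and 0.0529), and UBC9 with library totals (0.0629), with which GAPC2 passed (0.02).

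**Figure D4:**
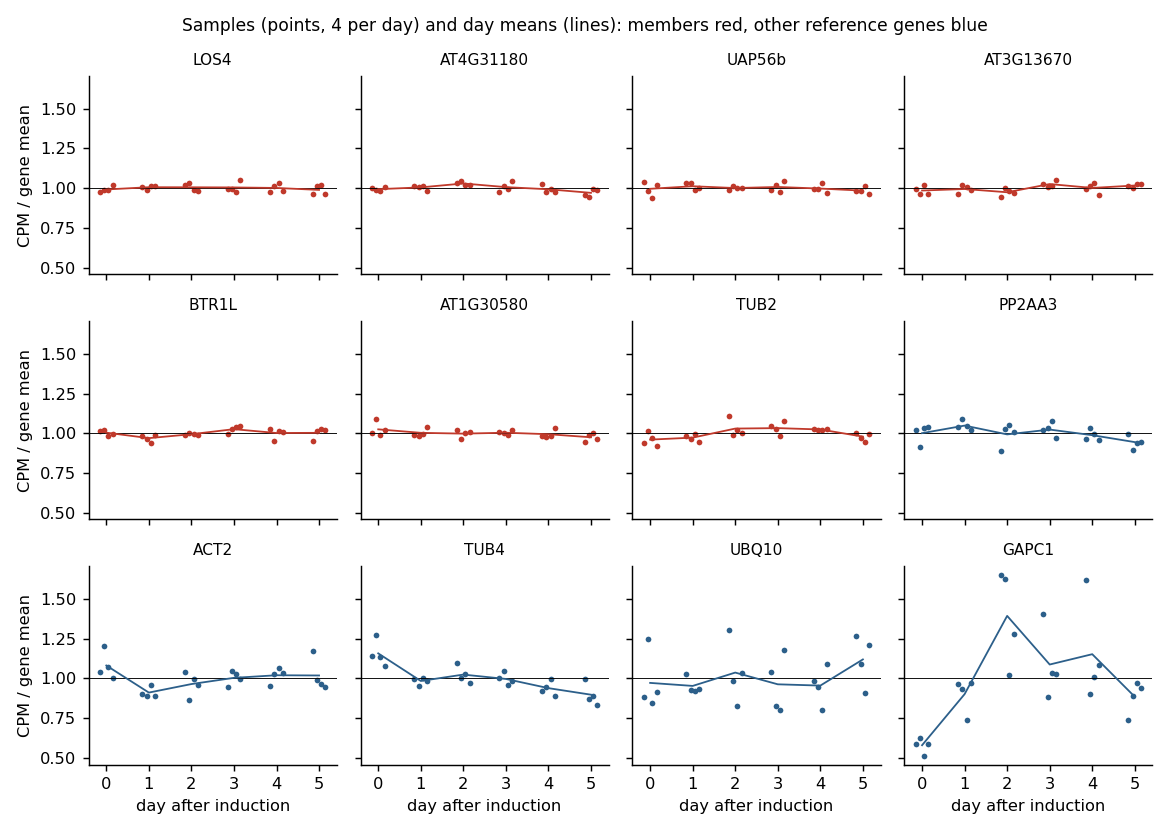
CPM of each sample over the gene's mean (points, 4 per day) and day means (lines) against day after induction, for 6 leading members and TUB2 (red) and for 5 other reference genes (blue). The red genes stay close to 1 on all days, GAPC1 rises from day 0 to day 2, and UBQ10 spreads widely within days other than day 1.

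The choice of reference changed how large a floral gene's response came out. AP3, a petal and stamen identity gene, stood at 6.04, 10.4, 7.20 and 10.7 CPM at day 0 and at 175, 171, 181 and 168 CPM at day 5. Divided by each of the 10 leading members in turn, AP3 was 20.2 to 21.9 times higher at day 5, and with the column total 20.85 times. Divided by each of the 25 reference genes, it was 13.7 times higher with GAPC1, 26.9 times with TUB4 and in between with the rest, a spread of 1.96 times between the extremes of 25 genes against 1.085 times for the 10 members. The members were chosen for low variation in these same samples, so their narrow spread follows from the rule. The median log2 change was 4.44 with the reference genes and 4.41 with the members.

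LFY, a floral meristem identity gene, stood at 51.0, 44.4, 43.2 and 52.5 CPM at day 0 and at 56.95, 50.7, 72.7 and 59.8 CPM at day 5, and these days overlapped. Between them LFY was higher, with a mean of 115.7 CPM (SD 7.9) at day 2. Every sample of days 1 to 4 was above all samples of day 0, so day 5 against day 0 leaves out most of its response. From day 0 to day 5 its log2 change was 0.34 ± 0.12 (SE, n = 4 per day) with the 10 members together and 0.28 to 0.40 with each alone. With the reference genes it ran from -0.28 ± 0.13 (GAPC1) to 0.69 ± 0.17 (TUB4), with a median of 0.38 against 0.35 for the 10 members, and GAPC1 was the only 1 of the 25 that gave a value below 0. With UBQ10 it was 0.11 ± 0.26, with a wider SE than with the 10 members. Without replicate 3 the LFY change was 0.20 in place of 0.34 with all 200 members and 0.18 in place of 0.32 with the column total. SVP, a repressor of flowering, went from 103, 88.7, 95.2 and 113 CPM to 19.9, 15.6, 16.5 and 16.8 CPM. Its log2 change was -2.58 to -2.46 with the members and -3.14 to -2.17 with the reference genes, lower at day 5 with each. Every such value is the floral gene's change less that of the reference. The spread and order of the references are therefore the same for AP3, LFY and SVP, and the 3 genes do not repeat the finding independently.

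**Figure D5:**
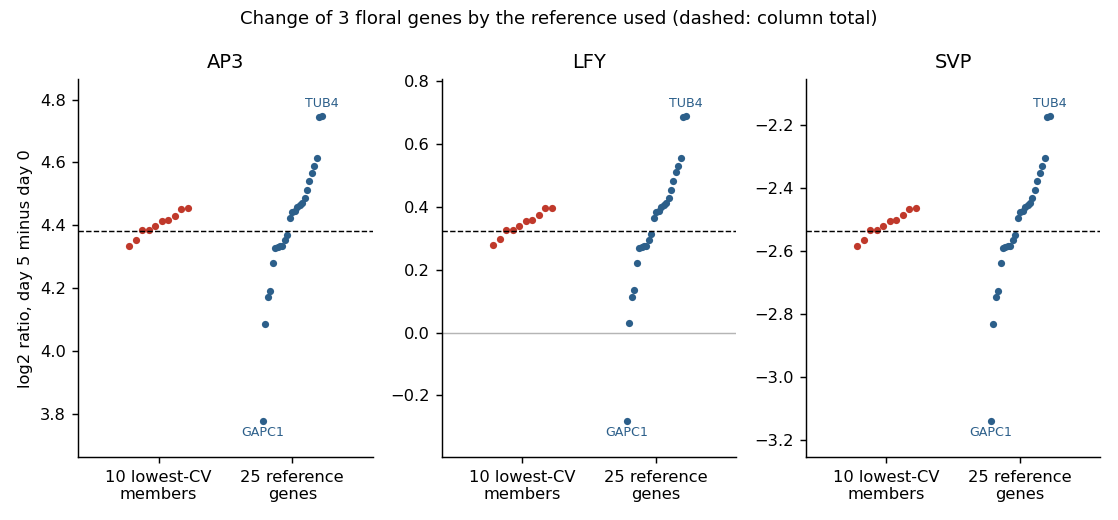
Log2 change from day 0 to day 5 of AP3, LFY and SVP after division by each of the 10 lowest-CV members (red) or each of 25 reference genes (blue), with the column total as a dashed line. The red points lie close together in each panel (4.34 to 4.45 for AP3), and GAPC1 and TUB4 are the ends of the blue points, below 0 and at 0.69 for LFY. By construction the spread and order of the references are the same in all panels.

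The leading members were also compared as ratios to one another. The SD of the log2 ratio over the 24 samples was 0.037 for UAP56b and LOS4, the lowest of the 45 pairs of the 10, and 0.074 for RH8 and PEX14, the highest. In a panel of 35 genes (the 10, and the 25 reference genes, TUB2 among them), each gene's SDs against the other 34 were averaged. The 11 members, TUB2 at place 7, took the first 11 places, from 0.113 (AT1G30580) to 0.124 (EHD1), ACT7 followed with 0.131, and GAPC1 was last with 0.471. Since members were chosen for low variation in the same samples, this order describes these samples only.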

How the data were processed

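PolyA RNA of inflorescences was sequenced for 24 samples, 6 days with 4 biological replicates each, in 2 batches, per the labels' protocols. The submitters' processing notes list the build TAIR10 and the tools Salmon 0.12.0, Trim Galore, FastQC and DESeq2, without roles or settings. The authors deposited expected counts per gene as whole numbers, with 1 column per run, and no rounding was needed. The runs of a sample were summed, and their chi-square over its degrees of freedom was 1.05 to 1.23, against 3.62 to 62.43 for replicates of 1 day. Of 23069 genes, 22915 matched the RefSeq annotation of TAIR10.1, the source of names, products, coordinates and sequences.

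CPM are deposited counts over the column total times 1e6, and the CV is the SD over the mean of 24 samples. The members and gene lists were chosen with earlier results of these data known, and the function classes and complex lists with the members in view. Shared 50-base stretches were counted for the members only, between the longest-coding transcripts of genes and on either strand. Each reference gene's ratio was taken per sample, and its SE combines the SDs of the 4 samples of each day.

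Change over days was tested in R 4.3.3 by edgeR 4.0.16, with its quasi-likelihood F-test, TMM scaling, day as a factor (18 residual and 4.09 prior degrees of freedom), genes kept by filterByExpr (minimum count 10, minimum total 15) and Benjamini-Hochberg adjustment over 19747 genes. The code was tested on simulated data. Genes named are the 10 lowest CVs, the 3 lowest of each class, the list's edge, the extremes of level and change, the reference genes, AP3, LFY and SVP; complex members were added after their values were seen. Alternatives were other scalings, level floors and measures of spread, DESeq2 1.42.0, other filters, the replicate number as a block, and each batch, replicate or library alone or left out.

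Counts per sample were 26.56 to 27.98 M (M, 1e6), of which batch 1 gave 4.50 to 10.84 M, so counting error at 50 CPM is below 3% of a value. Proteome data are not analysed here.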

Additional observations from a re-analysis of the deposited data

Results flagged for a closer look

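In 138 groups of 4 samples, made of the 6 days of the 10 leading members, 9 reference and floral genes, 3 other members and the members' geometric mean, 10 had a sample whose gap to the nearest of the other 3, over the range of all 4, exceeded Dixon's 95% critical value for 4 samples. Chance alone gives about 1 in 20 such groups.

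Among the members, LOS4 had 107.3 CPM in replicate 2 of day 1, with the others at 109.9 to 110.3 CPM. AT1G30580 had 293.4 CPM in replicate 4 of day 4, with the others at 277.3 to 278.6 CPM. AT-HF had 69.02 CPM in replicate 1 of day 2 (others 71.02 to 71.12 CPM) and 72.98 CPM in replicate 1 of day 5 (others 69.78 to 70.11 CPM).

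Among the reference genes, UBQ10 had 652.7 CPM in replicate 2 of day 0, with the others at 443.3 to 478.4 CPM, and 539.0 CPM in replicate 1 of day 1, with the others at 483.2 to 489.6 CPM. GAPC1 had 697.7 CPM in replicate 3 of day 1, with the others at 882.5 to 920.5 CPM. ACT2 had 232.1 CPM in replicate 3 of day 1, with the others at 215.4 to 218.0 CPM, and PP2AA3 had 80.81 CPM in replicate 2 of day 0, with the others at 90.07 to 91.86 CPM. SVP had 26.12 CPM in replicate 4 of day 3, with the others at 34.04 to 34.74 CPM. Replicate 2 of day 0 also had the lowest TMM factor, 0.944, and its part in these values was not tested. Most reference genes were not in this scan. Of those left out, UBC9 had 113.4 CPM in replicate 1 of day 5, with the others at 65.77 to 68.87 CPM. TUA4, UBC10 and YLS8 also had their highest value of day 5 in that sample. Without it UBC9 still passed over the 6 days (edgeR, adjusted p = 0.0384).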

How the results depend on the processing

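Of the 200 members, 100 stayed with TMM, 96 with DESeq2 size factors, 87 by the median absolute deviation, 94 by the CV of the 6 day means and 106 with a floor of 100 CPM, which is every member above that floor. A list of 100 holds 100 of them. Between 136 and 162 stayed with a replicate number left out, and 162 to 194 with a library left out, lowest without replicate 1 of day 5. Batch 1 alone kept 140 and batch 2 alone 174. The 10 leading genes were on all 42 other lists, except that 4 of them lie below the floor of 100 CPM, and 12 members were on every list of 200 or more.

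Over the 6 days 9662 genes passed, and 6384 (6167 at day 5 against day 0, 2883 of them lower) when only genes at 10 CPM or more were tested, fewer by construction. With a replicate number left out the count was 6336 to 9337, and with a library left out 8931 to 10203. The number of reference genes that passed, 11, became 7 with that filter, 7 with batch 1 alone, 4 to 8 with a replicate number left out and 8 to 12 with a library left out. The filter removes AT1G58050, at a mean of 1.01 CPM, which is part of that drop. With a replicate number left out, 32.0% to 47.2% of all genes tested passed, beside 48.9% with all samples. The cause of the other differences was not tested. LFY against UBQ10 reversed without replicate 3, from 0.11 to -0.066 on the log2 scale, with 0.27 without replicate 1, and no other ratio of AP3, LFY or SVP to ACT2, UBQ10, TUB4, the column total or the members did.

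Whether samples with the same replicate number belong together across days is not known here, and correlations cannot settle it. Residuals of same-numbered samples correlated from -0.317 to 0.605 (median 0.041), and those of other-numbered samples had a median of -0.008. With the replicate number as a block 9470 genes and 10 reference genes passed over the 6 days, 9236 at day 5, and 9 members at day 5 in place of 15. Of the members, 31 passed over the 6 days with DESeq2 in place of 18 and 9 with batch 1 alone, beside 46.6%, 48.9% and 40.3% of all genes tested. At day 5 against day 0, 25 passed with the filter at 10 CPM, 9 with batch 1 alone and 9 with the block, beside 46.1%, 40.0% and 46.8%. Of the 24 samples, 9 correlated best with their own number. With windows of 100 bases, 56 members had site II letters in place of 70. That is 28.0%, beside 21.5% of protein-coding genes at 50 CPM or more and 12.5% of all protein-coding genes. CVs of 50 CPM genes hold up to 2.7% counting error, which limits the order of members.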

Other observations

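TIP41L, a survey-derived reference gene, had a CV of 4.19%, within the range of the members, at a mean of 46.4 CPM, below the floor of 50 CPM. The proposed reference genes AT1G58050 and AT1G62930 fell from day 0 to day 5 by 2.47 ± 0.23 and 0.57 ± 0.08 (SE) on the log2 scale (edgeR, adjusted p = 1.23e-08 and 3.58e-06), the first of them at a mean of 1.01 CPM.

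After TMM scaling the 10 lowest CVs belonged to PGI1, UAP56b, AT4G39690, AT3G45190, AT4G31180, AT3G03940, ABCF3, AT3G17750, AT1G11660 and AT-HF. AT1G11660, of the Hsp70 family, is the one among them that is no member, at place 210 by column totals. AT3G45190 and AT3G03940, a phosphatase-associated protein and a kinase, came to places 4 and 6 from places 135 and 189.

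AT5G66560 shares 93.8% of its 50-base stretches with another gene, mainly AT5G66558 at 2.24 CPM, and its count is therefore uncertain. Of the 200 members, 139 share none.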
